A study of Dorcoceras hygrometricum with 51 samples.

Results

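The genes described here were raised in leaves of the resurrection plant Boea hygrometrica (Dorcoceras hygrometricum) by rapid air-drying but not by slow soil-drying. They were chosen from the mean of log2(FPKM + 1) in each group, where FPKM is the number of fragments scaled by transcript length and library size. A gene had to lie below 0.5 in SD/F and above 1 in each of FD/F, AD/A, F4D/F4 and A4D/A4, and the 150 genes with the largest minimum of those 4 differences were taken. Of 26693 genes in the deposited table, 357 met the thresholds, and the members are the first 150 of them. The SD/F, FD/F, AD/A, F4D/F4 and A4D/A4 values of the members therefore chose them, and are given below as a description without a test. The last members inside the limit were KZV16097 at 1.76, KZV22013 at 1.75 and KZV43580 at 1.75 (smallest of the 4 log2 differences), and the first genes outside it were KZV19184 at 1.74, KZV18927 at 1.73 and KZV51066 at 1.73. For SD/F the members nearest to the threshold were KZV30798 at 0.50, KZV34304 at 0.48 and KZV31497 at 0.48, and the genes just past it were KZV53228 at 0.50, KZV29898 at 0.51 and KQ990517.1_mrna_5460 at 0.52.

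Leaf RNA of greenhouse seedlings raised from wild-collected seed, aged 3 months at the first drying, was sequenced in 39 libraries (13 groups of 3 biological replicates), and promoter methylation was read from 12 bisulfite libraries. F plants were well watered and had never been dried. SD plants had been dried slowly in their soil, and A plants had been dried that way and then rewatered, which is the acclimation. FD and AD are the rapidly air-dried leaves of F and A. Without acclimation F4 and F18 were kept growing for a further 4 and 18 w, and A4 and A18 were grown for the same times after it. F4D, A4D, F18D and A18D are their rapidly air-dried leaves. The paper reports that A and A4 plants recovered from rapid drying, while F, F4, F18 and A18 plants did not. A18D/A18 and F18D/F18 therefore both come from plants without that tolerance. Acclimated is used below for the earlier treatment, whether or not the tolerance remained. All plants came from 1 mixed lot of seed of an outcrossing population, and each library pools leaves of many plants, so that variation between individual plants is not seen. The rule used 27 libraries of 9 groups, and the 12 libraries at 18 w did not enter it.

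Leaves that lose water fast have little time to build protectants, and a fast loss of turgor is known to open calcium channels, to start synthesis of abscisic acid (ABA) and jasmonate, and to switch on early stress genes within the same tissue. Calcium sensors, protein kinases, ubiquitin ligases and transcription factors of the ERF, WRKY and ZAT families act early in such responses, while late embryogenesis abundant (LEA) proteins and chaperones protect cell contents in a dry state. In Boea hygrometrica acclimation by slow drying is known to make leaves tolerant of a later rapid drying. The paper reports that this tolerance is lost again with longer growth.

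The sum of FPKM per library ran from 806800 to 1063492, and the worth of 1 fragment, read from the steps of low FPKM values, differed by up to 1.52 times between libraries. Between 7595 and 10220 genes were listed at 0 in a library, and the 10 most abundant genes held 7.18 to 25.5% of the FPKM. A list of 19 leaf markers (rubisco small chain, chlorophyll a-b binding proteins and others) summed to between 1095 and 173175 FPKM, so leaf RNA was present in every library. That sum was far lower in dried than in fresh leaves, 3240 to 8880 in F18D against 18932 to 42682 in F18 and 1504 to 3262 in A18D against 35056 to 54792 in A18. Root markers summed to 12.2 to 59.7, flower markers to 4.27 to 47.5 and a list of 21 seed proteins, of which 2 are members, to 156 to 1839 FPKM. The part of this fall in the members' higher FPKM was not tested, and in whole leaves fewer cells of a type and less RNA per cell cannot be told apart.

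All 150 members passed the filter of at least 1 FPKM in at least 3 libraries, which kept 18736 genes, and they did so from the libraries of the rule alone. The median member stood at a log2 difference of −0.08 in SD/F, where the median of all kept genes was −0.14. Of the 150 members, 81 were lower in SD than in F and 36 of these by more than 1, down to −6.28. By the same limit 25.4% of all kept genes were lower by more than 1. The rule capped SD/F for the members alone, so these shares cannot be set against each other. In limma's fit 22.1% of all kept genes were down-regulated and 12.9% up-regulated in SD/F. Rapid drying of F raised the median member by 3.70 (log2), and FD/F up-regulated 13.2% of all kept genes. The median member stood 2.89 higher in AD/A (13.1% of all kept genes up), 3.42 in F4D/F4 (10.4%) and 2.95 in A4D/A4 (10.4%), while the medians of all kept genes lay between −0.67 and −0.33. The rule set the lower end of these values. Between rapidly and slowly dried leaves, FD/SD, the median member differed by 4.18. The paper reports a similar leaf water content after both dryings. SD was read at the end of the slow drying, so an earlier, passing rise would not be seen. SD was the lowest group for 53 members, A for 37 and F for 29. In F 12 members were listed at 0 in all 3 libraries, and without these the median of FD/F was 3.66.

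**Figure D1:**
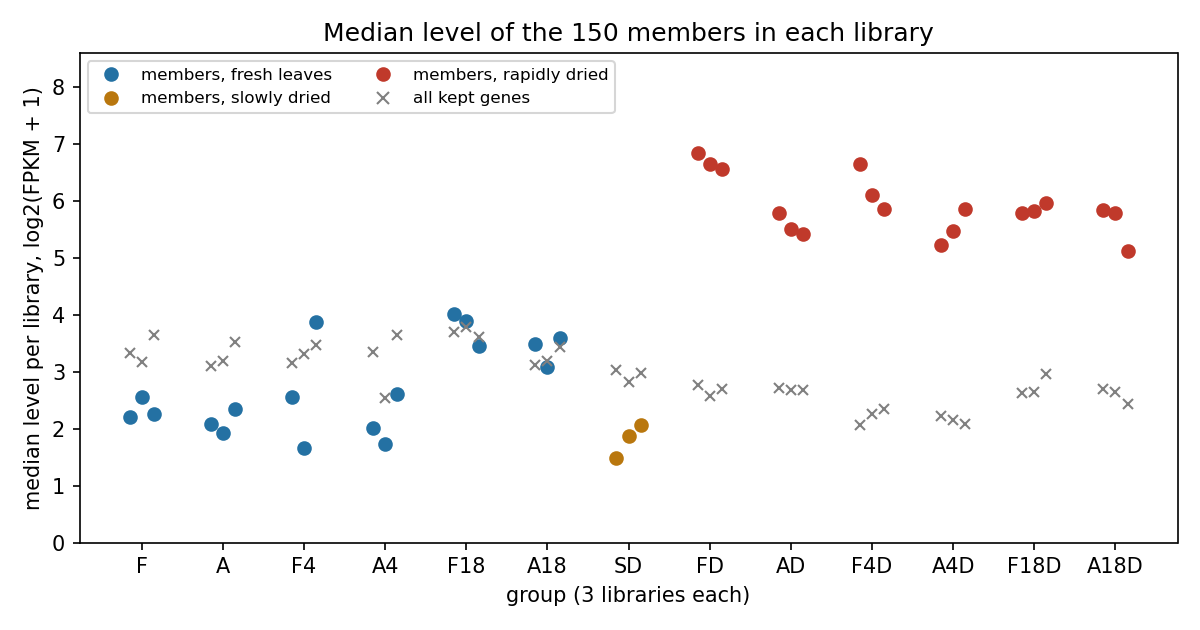
Median level of the 150 members, log2(FPKM + 1), in each of 39 libraries (points, coloured by fresh, slowly dried or rapidly dried leaves) beside the median of all kept genes (crosses). Rapidly dried libraries lie between 5.12 and 6.84, fresh libraries between 1.67 and 4.01 and SD libraries between 1.49 and 2.07.

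Library by library, the median member stood at 2.21, 2.56 and 2.26 in F and at 1.49, 1.87 and 2.07 in SD (log2(FPKM + 1)). The FD libraries held 6.84, 6.64 and 6.56. Every rapidly dried library lay above every fresh or slowly dried one, and SD overlapped with F4, A and A4. A library of fresh leaves stood apart: F4 replicate 3 was at 3.88 where its other replicates were at 2.55 and 1.67, and 102 of 150 members had their highest F4 value there, against 39.1% of all kept genes. In F, replicate 2 was the highest for 80 members, against 23.2% of all kept genes. These libraries entered the rule with the others of their group.

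**Figure D2:**
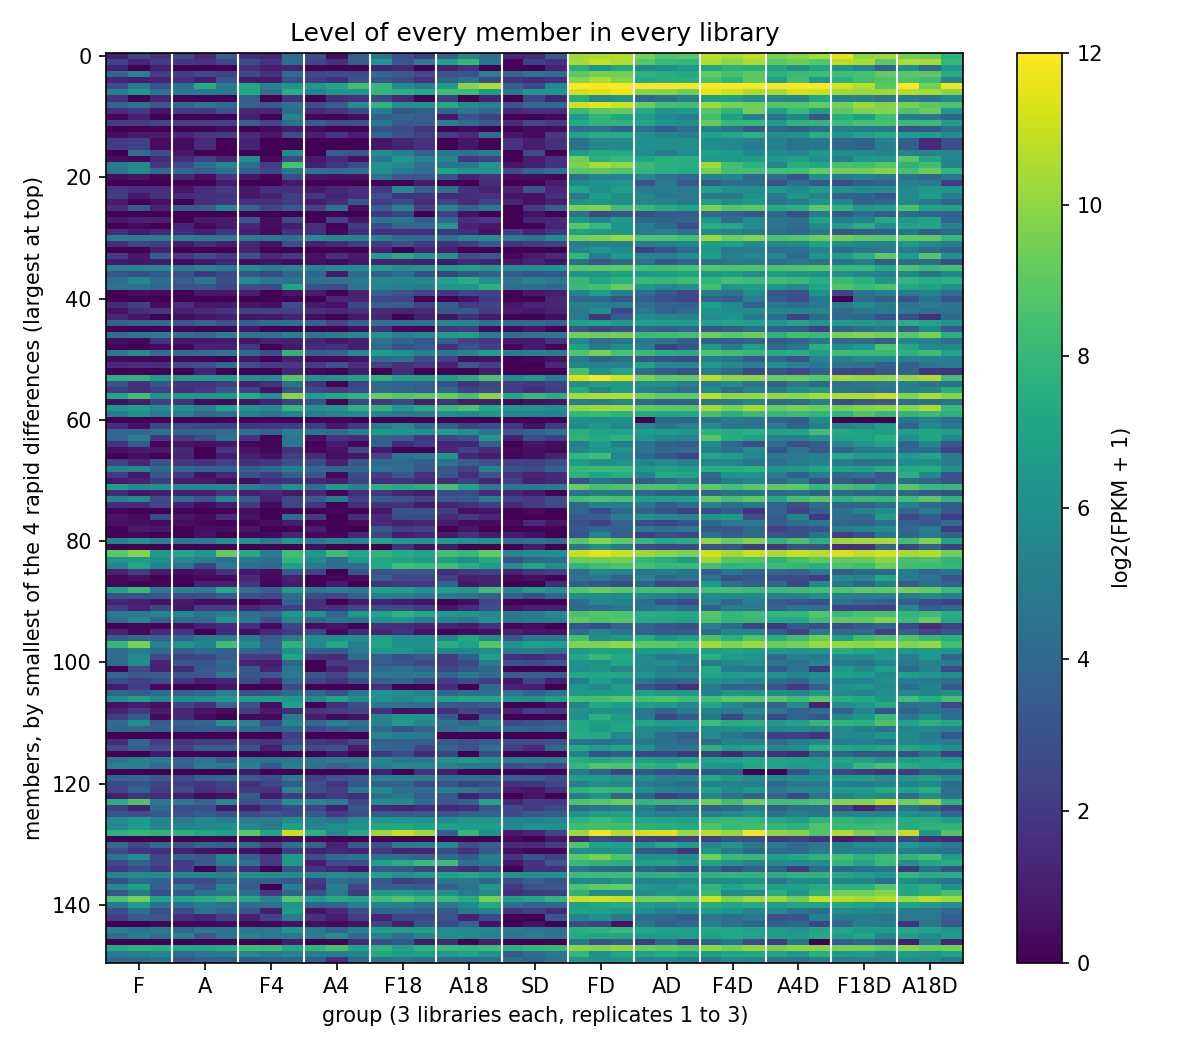
Level of each member, log2(FPKM + 1), in each library (columns, 3 per group), with members sorted from the largest (top) to the smallest of the 4 rapid differences. The 7 groups on the left are fresh or slowly dried leaves and the 6 on the right rapidly dried ones, where most members are high.

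The 18 w plants gave libraries that had not chosen the members. In F18D/F18, 109 of 150 members were up-regulated (limma, log2 fold change 1 or more, Benjamini-Hochberg adjusted p 0.05 or less), against 6.13% of all kept genes. No member was down-regulated, where 30.2% of all kept genes were, and 0 members lay below 0 with an unadjusted p under 0.05. In A18D/A18 115 members were up-regulated against 6.43% of all kept genes, and 0 were down-regulated against 20.6%, again with 0 below 0 at an unadjusted p under 0.05. Both comparisons called 88 members and 3.59% of all kept genes, 21 members were called in F18D/F18 alone, 27 in A18D/A18 alone and 14 in neither. In F18D/F18 all 3 dried libraries lay above all 3 fresh ones for 127 members (9.55% of all kept genes), and in A18D/A18 for 107 (8.87%).

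The median member rose by 2.20 in F18D/F18 and by 2.16 in A18D/A18 (log2), where the median kept gene was at −0.63 and −0.41. Leaving out the member listed at 0 in both groups the first median stayed at 2.20, and leaving out 3 members listed at 0 in A18 the second was 2.15. Scaling the libraries by median ratios brought the median of all kept genes to −0.05 and −0.01 and the median members to 2.87 and 2.67. The share of all kept genes called then became 11.0% up and 9.72% down in F18D/F18 and 11.6% up and 9.74% down in A18D/A18, and 129 and 131 members were up-regulated.

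**Figure D3:**
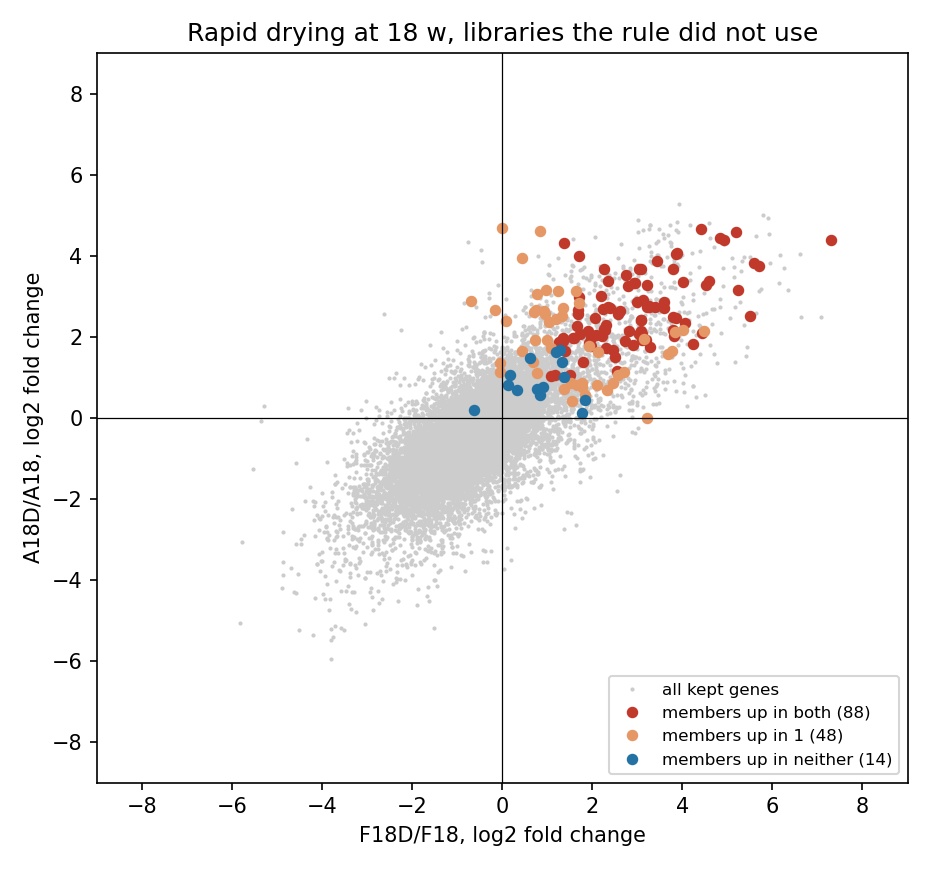
Log2 fold change of every kept gene in F18D/F18 (x axis) and A18D/A18 (y axis), with the members coloured by whether both, 1 or neither comparison called them up-regulated. Of 150 members 88 were up in both, and 144 lie above 0 on the x axis and 149 above 0 on the y axis.

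KZV34347, whose deposited product is Mediator subunit 18 (a part of the complex that joins transcription factors to RNA polymerase) but whose closest database match is an uncharacterized protein, had the largest minimum, 6.54. Its level was 0.95, 4.49 and 2.32 FPKM in F, 1.49, 1.78 and 9.1 in SD and 1240.3, 1469 and 1555 in FD. The transcript was abundant in air-dried leaves and scarce in fresh and slowly dried ones. At 18 w it stood at 25.4, 6.6 and 3.3 FPKM in F18 and 2895, 998 and 1191 FPKM in F18D (log2 fold change 7.31, SE 0.76, adjusted p = 2.01e-08). A18D/A18 gave 10.6, 43.3 and 19.2 FPKM in A18 and 699.8, 641 and 214 FPKM in A18D (log2 fold change 4.39, SE 0.76, adjusted p = 5.00e-05), and the groups did not overlap in either comparison.

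Of 47 kept genes in the list of LEA proteins, dehydrins and early light-induced proteins, which protect dry cells, 2 were members. That is 1.33% of the members, where the list holds 0.251% of all kept genes. Of the other 45, 38 were up-regulated in SD/F, so slow drying raised most of this list. The rule itself kept the members from being among those. KZV56073 (LEA protein 1-like) was the most abundant member described here, at 6.44, 26.5 and 7.18 FPKM in F, 11.6, 5.32 and 51.7 in SD, 6270.4, 4690.3 and 5036 in FD and 6302, 8781 and 7423 in F4D. At 18 w its fresh levels were higher and scattered, 247, 53.5 and 32.1 FPKM in F18 and 2462, 1602 and 473 FPKM in F18D (log2 fold change 4.01, SE 0.92, adjusted p = 0.000789). In A18D/A18 it reached 96.2, 902 and 1472 FPKM in A18 and 4673, 688 and 3590.3 FPKM in A18D, the groups overlapped, and the difference was not called (log2 fold change 2.16, SE 0.92, adjusted p = 0.0667). It was called after median-ratio scaling and without A18 replicate 3, A18D replicate 2 or replicate 2 of every group. KZV57972 (LEA protein D-29) stayed at lower levels, 3.84, 2.18 and 2.99 FPKM in F18 and 24.4, 22.4 and 11.1 in F18D (log2 fold change 2.29, SE 0.51, adjusted p = 0.000555). It went from 1.16, 8.61 and 3.91 FPKM in A18 to 13.7, 25.4 and 29.1 in A18D (log2 fold change 2.28, SE 0.51, adjusted p = 0.000775), with no overlap in either pair. Of the other 45 genes of the list 33 were up- and 0 down-regulated in F18D/F18, and 5 and 0 in A18D/A18 (37 and 17 up after median-ratio scaling).

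Chaperones of the HSP70, HSP90 and DnaJ list were 2 members (1.33%, against 0.523% of all kept genes). Of the other 96 chaperones 11 were up and 28 down in F18D/F18 (18 and 7 after median-ratio scaling). In A18D/A18 they gave 7 up and 14 down (14 and 4 after scaling). The list of heat shock factors and small heat shock proteins held 1 (0.667% against 0.24%) and the list of sugar protectants 2 (1.33% against 0.187%). Of these 2, KZV29584 is deposited as a cyclic nucleotide-gated channel and entered the list by its database match, so its place there is uncertain. KZV30235 (heat stress transcription factor A-6b-like, in Arabidopsis a link between ABA and heat responses) was listed at 0 in all 3 F libraries. It stood at 2.07, 0.18 and 0.14 FPKM in F18 and 12.4, 19.2 and 25.2 FPKM in F18D (log2 fold change 3.58, SE 0.50, adjusted p = 1.70e-06) and at 2.82, 3.34 and 0.28 FPKM in A18 and 11.1, 50.7 and 8.42 FPKM in A18D (log2 fold change 2.71, SE 0.50, adjusted p = 9.76e-05). KZV15176 (DnaJ protein ERDJ3A, a helper of chaperones in the endoplasmic reticulum) was even among its fresh replicates, 7.8, 6.23 and 9.3 FPKM in F, and stood at 68.1, 98.2 and 119 in FD. In F18D/F18 it gave 9.94, 8.54 and 9.35 FPKM in F18 and 39.9, 38.1 and 39.8 FPKM in F18D (log2 fold change 1.97, SE 0.37, adjusted p = 9.22e-05), again without overlap. KZV22620 (the chloroplast chaperone ClpD, induced by dehydration in Arabidopsis) had tight replicates, 43.8, 59.8 and 54.1 FPKM in F and 304, 311 and 311 FPKM in FD. At 18 w neither F18D/F18 (log2 fold change 0.32, SE 0.21, adjusted p = 0.228) nor A18D/A18 (log2 fold change 0.69, SE 0.21, adjusted p = 0.0123) passed the threshold of 1 for this gene, although both did after median-ratio scaling. KZV41416 (trehalose-phosphate phosphatase A-like, which makes trehalose from its phosphate) stood at 22.6, 18.5 and 9.42 FPKM in F18 and 118, 108 and 171 FPKM in F18D (log2 fold change 2.95, SE 0.48, adjusted p = 1.61e-05) and at 8.09, 4.12 and 37 FPKM in A18 and 149.9, 174 and 64.7 FPKM in A18D (log2 fold change 3.31, SE 0.48, adjusted p = 4.52e-06).

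ABA synthesis and breakdown gave 1 member (0.667% against 0.0961% of all kept genes) and ABA signalling 1 (0.667% against 0.411%). KZV28203 encodes 9-cis-epoxycarotenoid dioxygenase 1 (NCED1), the enzyme of the rate-limiting step of ABA synthesis. Its level was 1.71, 3.03 and 0.59 FPKM in F and 1.58, 2.11 and 1.83 in SD, and 301, 490.4 and 529 in FD. AD libraries held 148, 73.8 and 84.3 FPKM, below every FD library and above every library of A, F or SD. At 18 w it rose without overlap from 31.3, 7.51 and 10.5 FPKM in F18 to 507, 789 and 885 in F18D (log2 fold change 5.59, SE 0.65, adjusted p = 1.00e-07). In A18D/A18 the values were 13.5, 25.7 and 16.6 FPKM in A18 and 408, 595 and 77.2 FPKM in A18D (log2 fold change 3.82, SE 0.65, adjusted p = 3.62e-05), with A18D replicate 3 far below its group. KZV34986 (protein phosphatase 2C 37, whose Arabidopsis counterpart restrains ABA signalling) went from 222, 95.3 and 159 to 726, 880.4 and 986 FPKM in F18D/F18 (log2 fold change 2.51, SE 0.52, adjusted p = 0.000286). A18D/A18 gave 280.2, 384 and 154 FPKM in A18 and 947, 1434 and 285 FPKM in A18D with overlap (log2 fold change 1.51, SE 0.52, adjusted p = 0.0237), a call lost without A18 replicate 3, A18D replicate 1 or A18D replicate 2. Of the other 17 kept genes of ABA synthesis and breakdown 5 were up- and 3 down-regulated in F18D/F18 (5 and 1 after scaling), and 2 up and 5 down in A18D/A18 (3 and 3 after scaling). The other 76 of ABA signalling gave 13 up and 21 down in F18D/F18 (27 and 5 after scaling). In A18D/A18 they gave 10 up and 12 down (16 and 5 after scaling).

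**Figure D4:**
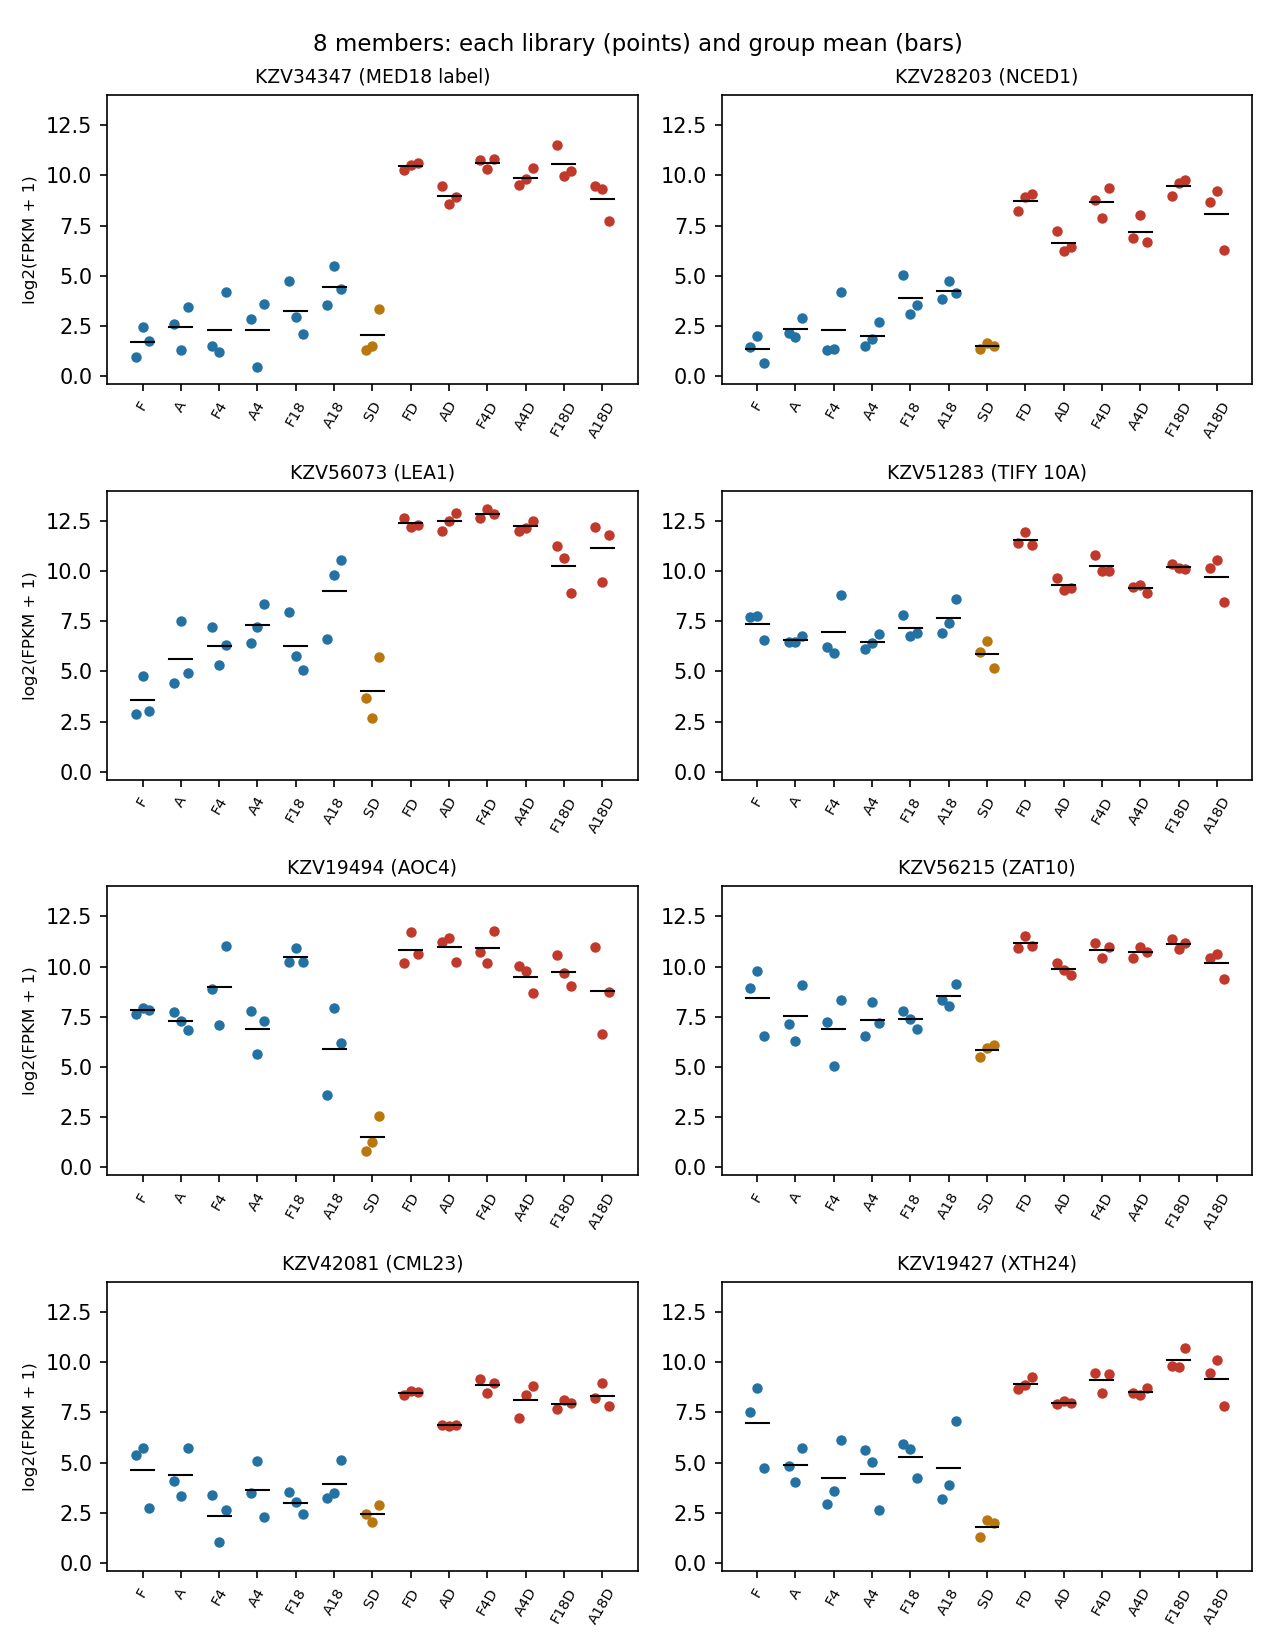
Level of 8 members, log2(FPKM + 1), in each library (points) with the group mean (bars), for fresh, slowly dried and rapidly dried groups. In each panel the rapidly dried groups lie above SD, and for KZV19494 (allene oxide cyclase 4) SD lies below all fresh groups.

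Jasmonate signalling held 2 members (1.33% against 0.0801% of all kept genes) and jasmonate synthesis 1 (0.667% against 0.107%). A cytochrome P450 of jasmonate breakdown was a further member. KZV51283 (TIFY 10A-like, a repressor of jasmonate responses that the hormone itself induces) stood at 205, 218 and 94 FPKM in F and at 61.9, 89.6 and 35.4 in SD, against 2681, 3910.4 and 2466 in FD. In F18D/F18 it rose from 222, 107 and 120.2 to 1282, 1134 and 1085 FPKM (log2 fold change 3.03, SE 0.55, adjusted p = 6.09e-05), the dried replicates lying close together. Acclimated plants went from 117, 169.6 and 394 to 1147, 1504 and 346 FPKM with overlap (log2 fold change 2.08, SE 0.55, adjusted p = 0.00369), a call lost when replicate 1 or replicate 2 of every group was left out. The second TIFY 10A-like member, G002029, was called in both comparisons (2.09 and 2.05, log2), and these calls were lost without F18 replicate 3 and without A18 or A18D replicates 1 or 2. Of the other 13 kept genes of jasmonate signalling, 3 were up and 5 down in F18D/F18 (5 and 2 after scaling) and 0 up and 6 down in A18D/A18 (1 and 3 after scaling). The other 19 of jasmonate synthesis gave 4 up and 3 down in F18D/F18 (6 and 1 after scaling). In A18D/A18 they gave 2 up and 3 down (3 and 3 after scaling).

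KZV19494 (allene oxide cyclase 4, which forms the ring of the jasmonate precursor) had the lowest SD/F value of any member, with 199, 246 and 229 FPKM in F and 0.75, 1.37 and 4.85 in SD. Rapidly dried leaves held 1168, 3340.2 and 1559 FPKM in FD and 2377, 2714 and 1208 in AD. At 18 w its fresh levels split by acclimation, 1189.9, 1933 and 1196 FPKM in F18 and 11.2, 245 and 71.1 FPKM in A18 (log2 fold change −4.54, SE 0.90, adjusted p = 0.00195), a call lost when replicate 1 of every group was left out or the 12 libraries of 18 w were fitted alone. F18D held 1521, 808 and 515 FPKM and overlapped with F18 (log2 fold change −0.71, SE 0.90, adjusted p = 0.556), and median-ratio scaling turned that value to 0.10. A18D held 1995, 99.5 and 429 FPKM, widely scattered and overlapping with A18 (log2 fold change 2.88, SE 0.90, adjusted p = 0.0137), and the call was lost without A18 replicate 1, A18D replicate 1, or replicate 3 of every group. KZV48120 (cytochrome P450 94C1, an oxidase of active jasmonate in Arabidopsis) gave 11.6, 1.71 and 3.13 FPKM in F18 and 43.1, 74.7 and 123 FPKM in F18D (log2 fold change 3.84, SE 0.93, adjusted p = 0.00133). Its acclimated values were 1.34, 1.29 and 11.3 FPKM in A18 and 13.2, 40.2 and 8.25 FPKM in A18D, a difference not called (log2 fold change 2.12, SE 0.93, adjusted p = 0.0763), though it was after median-ratio scaling and without A18 replicate 3 or replicate 3 of every group.

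Calcium sensors were 6 of the 150 members (4%), where the list holds 0.576% of all kept genes. All 6 were up-regulated in F18D/F18 and 5 in A18D/A18. KZV42081 (calmodulin-like CML23) was low in SD, 4.38, 3.12 and 6.43 FPKM, and scattered in F at 40.2, 52.8 and 5.6. FD replicates held 325, 376 and 364 FPKM and AD replicates 116, 112 and 115, each group being tight. It rose from 10.6, 7.19 and 4.49 to 205, 279 and 249.8 FPKM in F18D/F18 (log2 fold change 4.92, SE 0.68, adjusted p = 1.57e-06). In A18D/A18 the values were 8.51, 10.2 and 33.5 FPKM in A18 and 300.01, 492 and 226 FPKM in A18D (log2 fold change 4.39, SE 0.68, adjusted p = 1.12e-05), and neither pair overlapped. KV016225.1_mrna_38718 (CML41, a sensor of the same family) gave 3.61, 5.76 and 1.81 FPKM in F18 and 46.6, 13.1 and 17.9 FPKM in F18D (log2 fold change 2.39, SE 0.54, adjusted p = 0.000717). A18D/A18 raised it from 4.49, 1.74 and 4.14 to 43.4, 29.7 and 14.9 FPKM (log2 fold change 2.71, SE 0.54, adjusted p = 0.000255), also without overlap. KZV40263, a calcium-binding protein named after the olive pollen allergen Ole e 8, was already at 586, 467 and 499.6 FPKM in F18 and reached 1479, 1503 and 1977 in F18D (log2 fold change 1.67, SE 0.54, adjusted p = 0.013), a call lost without replicate 1 of every group. It was the sensor not called in A18D/A18 (log2 fold change 0.81, SE 0.54, adjusted p = 0.265), where its groups overlapped. The fourth of those named, KZV46819 (CML44), was called in both (3.25 and 2.77, log2), the first call being lost without replicate 1 of every group and the second without A18 replicate 2 or A18D replicate 1. Of the other 102 sensors 15 were up and 20 down in F18D/F18 (26 and 5 after scaling) and 17 up and 17 down in A18D/A18 (25 and 8 after scaling).

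Protein kinases were 5 members, 3.33% of them against 3.79% of all kept genes, of which 3 were up-regulated in F18D/F18 and 5 in A18D/A18. KZV24955 (mitogen-activated protein kinase kinase kinase 2-like, at the head of a kinase cascade) was at 23.9, 60.6 and 4.74 FPKM in F and 2.64, 8.28 and 4.57 in SD. It stood at 503, 778 and 417 FPKM in FD and 69.5, 71.6 and 62.9 in AD, with no overlap. At 18 w it gave 19.8, 17.8 and 12.5 FPKM in F18 and 329, 218 and 308 FPKM in F18D (log2 fold change 4.02, SE 0.77, adjusted p = 0.00012). A18D/A18 gave 18.1, 10.7 and 35.7 FPKM in A18 and 236, 339.6 and 108 FPKM in A18D (log2 fold change 3.35, SE 0.77, adjusted p = 0.00109), and A18D overlapped with F18D. KZV18638 (the receptor-like kinase PERK9, of a proline-rich family that senses the cell wall) held even F18 values, 11.7, 11.7 and 11.2 FPKM, against 31.8, 37.9 and 24.8 in F18D (log2 fold change 1.36, SE 0.41, adjusted p = 0.00848). The acclimated plants gave 9.08, 6.83 and 11.1 FPKM in A18 and 45.4, 41 and 27.6 FPKM in A18D without overlap (log2 fold change 1.96, SE 0.41, adjusted p = 0.000467). Its F18D/F18 call was lost without replicate 1 of every group. KZV50628, a putative receptor-like kinase, did not pass in F18D/F18 (log2 fold change 1.04, SE 0.57, adjusted p = 0.14) but did in A18D/A18 (log2 fold change 2.36, SE 0.57, adjusted p = 0.0018). The F18D/F18 value was called after median-ratio scaling and in the 12-library fit of 18 w, and the difference between the responses was not called (difference 1.33 on the log2(FPKM + 1) scale, SE 0.81, adjusted p = 0.486). Of the other 706 kinases 32 were up and 263 down in F18D/F18 (72 and 117 after scaling) and 39 up and 146 down in A18D/A18 (89 and 83 after scaling).

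Ubiquitin ligases and F-box proteins, which choose proteins for degradation, were the largest list with 7 members, 4.67% against 3.37% of all kept genes. Of the 7, 6 were up-regulated in each comparison. KZV46408 (U-box protein 21-like) was at 0.35, 0.75 and 0.8 FPKM in F, 0.6, 0.22 and 3.15 in SD and 131, 179 and 169 in FD. It gave 15.1, 6.88 and 3.8 FPKM in F18 and 78.8, 119 and 164 FPKM in F18D (log2 fold change 3.78, SE 0.57, adjusted p = 5.17e-06), the groups standing apart. A18D/A18 raised it from 3.72, 1.99 and 19.7 to 97.5, 102 and 57.4 FPKM (log2 fold change 3.66, SE 0.57, adjusted p = 1.12e-05). KZV14962 (PUB23-like, in Arabidopsis a ligase that lowers drought and immune responses) was below 1 FPKM in all libraries of F, SD and A, at 30.6, 13.8 and 17.7 FPKM in FD and at 8.31, 6.54 and 4.95 in AD. In older plants it stood at 16.4, 20.4 and 6 FPKM in F18 but at 3.81, 0.38 and 0.5 in A18 (log2 fold change −2.68, SE 0.49, adjusted p = 0.000852, lost without replicate 2 of every group). Dried leaves held 31.6, 50.1 and 53.1 FPKM in F18D and 35.2, 37.5 and 28.4 in A18D, which overlap. Its rise was called in F18D/F18 (log2 fold change 1.71, SE 0.49, adjusted p = 0.00563), though not without F18 replicate 3, and in A18D/A18 (log2 fold change 4.00, SE 0.49, adjusted p = 3.84e-07). KZV21342 (PUB24-like, a relative of PUB23) was not called in F18D/F18 (log2 fold change 1.33, SE 0.60, adjusted p = 0.067), though it was after median-ratio scaling or without F18 replicate 1, and was called in A18D/A18 (log2 fold change 2.51, SE 0.60, adjusted p = 0.0015). The F-box and WD40 protein KZV20218 went from 1.67, 1.37 and 1.68 to 17.8, 26.4 and 28.7 FPKM in F18D/F18 (log2 fold change 3.27, SE 0.48, adjusted p = 3.71e-06). Its acclimated values were 8.19, 9.45 and 3.48 FPKM in A18 and 30.3, 19.7 and 24.1 FPKM in A18D (log2 fold change 1.74, SE 0.48, adjusted p = 0.00521), a call lost without replicate 1 of every group. Of the other 624 genes of the list 67 were up and 164 down in F18D/F18 (119 and 45 after scaling) and 77 up and 110 down in A18D/A18 (127 and 45 after scaling).

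Transcription factors among the members were 3 ERF, 2 WRKY, 2 zinc finger and 1 heat stress factor. ERF factors were 2% of the members against 0.512% of all kept genes, WRKY factors 1.33% against 0.326% and zinc finger factors 1.33% against 1.48%. The lists of MYB, NAC, bHLH and bZIP factors held no member. They hold only 0.454%, 0.267%, 0.32% and 0.0587% of all kept genes, so their absence says little. KZV37444 (ERF109-like, in Arabidopsis a factor induced quickly by wounding and oxidants) was at 2.1, 0 and 0 FPKM in F18 and 63, 81.8 and 52.7 in F18D (log2 fold change 5.50, SE 0.74, adjusted p = 1.08e-06). The acclimated plants held 1.68, 0 and 17 FPKM in A18 and 19.2, 38.4 and 10.5 FPKM in A18D, with overlap (log2 fold change 2.52, SE 0.74, adjusted p = 0.0086), and the call was lost without A18 replicate 2 or A18D replicate 2. Earlier it had stood at 81.5, 50.5 and 103 FPKM in FD and at 7.77, 4.05 and 1.84 in AD, with no overlap. KZV28919 (RAP2-13, an ERF factor) was lower in every SD library than in every F library, 41.2, 66.1 and 35.5 FPKM in F and 18.7, 23.6 and 19.5 FPKM in SD. It rose to 1160.5, 1309 and 1388 FPKM in F18D from 122, 75.6 and 78.1 in F18 (log2 fold change 3.82, SE 0.44, adjusted p = 9.84e-08). A18D held 324, 813 and 133 FPKM and A18 96.4, 75.4 and 70 (log2 fold change 2.02, SE 0.44, adjusted p = 0.000651). The ZAT10-like zinc finger gene KZV56215 (a repressor that rises in many stresses in Arabidopsis) was read in all states, 480.2, 872 and 93.2 FPKM in F, 44.7, 59.6 and 66.6 in SD and 1963, 2902 and 2059 in FD. It gave 222, 168 and 118 FPKM in F18 and 2643, 1894 and 2319 FPKM in F18D (log2 fold change 3.78, SE 0.67, adjusted p = 4.61e-05). In A18D/A18 its groups stood apart, 326, 263 and 567 FPKM in A18 and 1390.2, 1592 and 672 FPKM in A18D, but the change was not called (log2 fold change 1.64, SE 0.67, adjusted p = 0.0556). It was called after median-ratio scaling, in a fit of the 12 libraries of 18 w, and without A18 replicate 3, A18D replicate 3 or replicate 3 of every group. KZV42754 (WRKY 48, in Arabidopsis a repressor of basal defence) was called in both comparisons, at 2.05 in F18D/F18 and 2.47 in A18D/A18 (log2). KZV58500 (ZAT11-like, a relative of ZAT10) was not called in F18D/F18 (1.63), except after median-ratio scaling, and was in A18D/A18 (3.12, lost without replicate 2 of every group). KZV33116 (WRKY 26) was called at 2.31 and 1.72, the second call being lost without A18 or A18D replicates 1 or 2. Of the other 93 ERF and DREB genes 21 were up and 14 down in F18D/F18 (24 and 4 after scaling) and 14 up and 9 down in A18D/A18 (19 and 5 after scaling). The other 59 WRKY genes gave 2 up and 18 down in F18D/F18 (6 and 6 after scaling) and 6 up and 9 down in A18D/A18 (8 and 2 after scaling). Most called genes among the other 275 zinc finger factors fell, 19 up and 86 down in F18D/F18 (28 and 32 after scaling). In A18D/A18 these gave 12 up and 56 down (27 and 26 after scaling).

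Membrane, wall and lipid genes followed. The list of nitrate, peptide, ion and ABC transporters held 3 members (2% against 1.52% of all kept genes). Its other 281 genes gave 8 up and 95 down in F18D/F18 (20 and 48 after scaling). In A18D/A18 they gave 29 up and 66 down (47 and 37 after scaling). Cell wall enzymes were 1 member (0.667% against 0.966%). The other 180 gave 6 up and 36 down in F18D/F18 (19 and 18 after scaling). In A18D/A18 they gave 17 up and 30 down (21 and 16 after scaling). KZV53761 and KZV53760, both ABCG11-like (in Arabidopsis an exporter of cuticle lipids), are neighbours on scaffold KQ990066.1 of the assembly in the deposited table, at 286286 to 288963 and 256155 to 258793. KZV53761 was below 1.5 FPKM in every F, SD and A library and at 477, 276 and 80.1 FPKM in FD, against 32.4, 16.9 and 6.12 in AD. At 18 w KZV53761 gave 5.62, 14.5 and 19.3 FPKM in F18 and 98.8, 190.4 and 60.1 FPKM in F18D (log2 fold change 3.04, SE 0.90, adjusted p = 0.00686). A18 held 85.8, 1.31 and 0.77 FPKM, so that replicate 1 overlapped with A18D at 121, 137 and 41.5 (log2 fold change 3.66, SE 0.90, adjusted p = 0.00209), and both calls were lost without replicate 2 of every group. KZV53760 also had its highest A18 value in replicate 1, 76.9, 1.47 and 0.86 FPKM, and was called in both comparisons (2.93 and 3.34, log2), though not without F18 replicate 1 and not without A18 replicate 3. KZV19427 (xyloglucan endotransglucosylase/hydrolase 24, which cuts and rejoins wall polymers) stood at 184, 413 and 25.4 FPKM in F and at 1.46, 3.44 and 2.96 in SD. FD held 399, 459 and 609 FPKM, overlapping with the high F replicate 2. At 18 w it rose without overlap, 59.2, 50.3 and 17.6 FPKM in F18 and 903, 875 and 1697 FPKM in F18D (log2 fold change 4.84, SE 0.89, adjusted p = 7.13e-05) and 8.07, 13.6 and 135 FPKM in A18 and 704, 1108 and 228 FPKM in A18D (log2 fold change 4.42, SE 0.89, adjusted p = 0.000262). KZV30798 (acyl-CoA oxidase 2 of peroxisomal fatty acid breakdown) had close replicates, 39.4, 46.1 and 48.3 FPKM in F and 489.98, 507 and 543 FPKM in FD. Its change at 18 w was 1.39 in F18D/F18 and 1.64 in A18D/A18 (log2; SE 0.23 in each), with no overlap in either. KZV58480, a MATE efflux protein (exporters of organic acids and secondary products), was tight in FD at 36.6, 35.1 and 33.8 FPKM and changed by 1.98 and 1.98 (log2), calls lost without F18 replicate 3 or F18D replicate 2 and without A18 replicate 2. KZV57048 (calcium-transporting ATPase 13, which pumps calcium out of the cell) rose from 1.92, 1.08 and 1.42 to 14.6, 13.2 and 20.4 FPKM in F18D/F18 (log2 fold change 2.78, SE 0.36, adjusted p = 5.14e-07). In A18D/A18 it rose from 0.88, 0.32 and 0.33 to 12.5, 9.51 and 19.4 FPKM (log2 fold change 3.26, SE 0.36, adjusted p = 6.88e-08).

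Members linked to defence, dioxygenases and respiration differed in how far they were already on in fresh leaves at 18 w. KZV56021 (SRG1-like, of the dioxygenase family that also makes flavonols and gibberellins) was nearly unread in F, 0.17, 1.1 and 0 FPKM, and in SD, 0, 0 and 0.19. It stood at 85.1, 230.4 and 126 FPKM in FD and gave 11.9, 15.5 and 10.2 FPKM in F18 and 178, 112 and 310.5 FPKM in F18D (log2 fold change 3.79, SE 0.86, adjusted p = 0.000706). Acclimated plants held 0.78, 7.16 and 4.24 FPKM in A18 and 33.1, 27.4 and 13.1 FPKM in A18D (log2 fold change 2.49, SE 0.86, adjusted p = 0.0236). That call was lost without A18 replicate 1 or A18D replicate 1 or 2. Every A18 library lay below every F18 library, and every A18D library below every F18D library. Neither A18/F18 (log2 fold change −1.66, SE 0.86, adjusted p = 0.23) nor A18D/F18D (log2 fold change −2.95, SE 0.86, adjusted p = 0.0841) was called in limma. KZV47583 (basic 7S globulin, known from legume seeds as a stress-released protein) held 27.5, 81.4 and 38.5 FPKM in F18 and 35.3, 83.2 and 74.5 in F18D, the groups overlapping (log2 fold change 0.44, SE 0.91, adjusted p = 0.735). In acclimated plants it stood at 45.6, 2.55 and 3.98 FPKM in A18 and 464, 130.2 and 47.4 FPKM in A18D (log2 fold change 3.93, SE 0.91, adjusted p = 0.00115), where the high A18 value was again replicate 1. The difference between its responses was not called (difference 3.50 on the log2(FPKM + 1) scale, SE 1.28, adjusted p = 0.206). KZV22562 (ENHANCED DISEASE RESISTANCE 2, in Arabidopsis a brake on cell death in defence) was tight among fresh replicates and stood at 111, 103 and 117 FPKM in F18 and 56.7, 50.5 and 47.5 FPKM in A18. Its F18D/F18 value was −0.04 (log2) and not called, and median-ratio scaling turned it to 0.76. It reached 151, 125 and 76.9 FPKM in A18D (log2 fold change 1.12, SE 0.34, adjusted p = 0.0111), a call lost without A18D replicate 1. KZV31497 (alternative oxidase 1B, a mitochondrial bypass of the respiratory chain) rose from 114, 63.5 and 64.5 to 108, 306 and 384 FPKM in F18D/F18 with overlap (log2 fold change 1.57, SE 0.59, adjusted p = 0.0309), and the call was lost without F18 or F18D replicates 2 or 3. In A18D/A18 it gave 41.9, 152 and 48.7 FPKM in A18 and 408, 254 and 185 FPKM in A18D (log2 fold change 1.96, SE 0.59, adjusted p = 0.0107), lost without A18 replicate 1 or 3 or A18D replicate 1.

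Triterpene genes differed in their fresh levels. KZV14753 (beta-amyrin synthase, which makes the core of many triterpenes) was below 0.5 FPKM in F and SD and gave 10.4, 5.23 and 5.29 FPKM in F18 and 54.8, 43.8 and 139 FPKM in F18D (log2 fold change 3.21, SE 0.46, adjusted p = 3.03e-06). KZV58289 (beta-amyrin 28-oxidase-like, of the family that oxidises that core) was well above it in F at 22.4, 36.3 and 30.9 FPKM and rose to 147, 108 and 64.3 in F18D from 48.6, 26.8 and 29.9 in F18 (log2 fold change 1.54, SE 0.27, adjusted p = 4.46e-05). In A18 it was already at 68.8, 94.7 and 70.3 FPKM (log2 fold change 1.16, SE 0.27, adjusted p = 0.00684), a call lost without A18 replicate 2 or F18 replicate 2, and A18D at 112, 122 and 82.1 overlapped with A18 (log2 fold change 0.42, SE 0.27, adjusted p = 0.238), a difference called after median-ratio scaling. Of these genes KZV14753 was up-regulated in both comparisons and KZV58289 in F18D/F18.

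Proteolysis entered from both sides. KZV38167 and KZV16803 (cysteine protein inhibitor B, a cystatin that blocks cysteine proteases) had identical values in all 39 libraries, so they count as 1 measurement. They stood at 0.68, 1.29 and 2.02 FPKM in F18 and 14.1, 12.2 and 33.6 FPKM in F18D (log2 fold change 3.07, SE 0.50, adjusted p = 1.70e-05) and, at lower dried levels, at 0, 0.65 and 0 FPKM in A18 and 11.6, 1.7 and 6.44 FPKM in A18D (log2 fold change 2.42, SE 0.50, adjusted p = 0.000383). KZV46591 (desumoylating isopeptidase 1, which removes the small protein SUMO from its targets) was even in fresh leaves, 32.3, 33 and 33.3 FPKM in F, and reached 698, 832 and 1083 in FD. At 18 w it gave 38, 17.8 and 17.6 FPKM in F18 and 676, 512 and 485 FPKM in F18D (log2 fold change 4.53, SE 0.34, adjusted p = 3.94e-11) and 24.3, 49.6 and 63.9 FPKM in A18 and 537, 538 and 254 FPKM in A18D (log2 fold change 3.26, SE 0.34, adjusted p = 2.86e-08). It had the smallest adjusted p of the genes named here in F18D/F18, and its groups did not overlap. KZV42614 (aspartic protease-like 2) was called in F18D/F18 (log2 fold change 1.83, SE 0.51, adjusted p = 0.00443) and not in A18D/A18 (log2 fold change 0.57, SE 0.51, adjusted p = 0.419), where A18 replicate 3, at the high end of 26.2, 52.7 and 151 FPKM, lay above every A18D library. That change was called without replicate 3 of every group, and the F18D/F18 call was lost without replicate 1 or 2 of every group. Of the other 330 genes of autophagy and proteolysis 9 were up and 108 down in F18D/F18 (22 and 30 after scaling) and 14 up and 72 down in A18D/A18 (21 and 25 after scaling).

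Other genes with a large minimum were spread over many functions. KZV20601 (a cytochrome b561 and DOMON protein, of a family that passes electrons across membranes) stood at 31.4, 92.9 and 26.1 FPKM in F and 2280.5, 2732 and 3320.4 FPKM in FD, and gave 2.61 in F18D/F18 and 2.64 in A18D/A18 (log2), both called. KZV28905 (7-deoxyloganetin glucosyltransferase-like, which adds sugars to terpenoids) stood at 14, 25.4 and 8.42 FPKM in F and 2289, 3028 and 2228 FPKM in FD, and was called in both comparisons (3.13 and 2.89). KZV28101 (deposited as myosin heavy chain kinase B) stood at 3.21, 3.44 and 5.08 FPKM in F and 161, 232 and 239.9 FPKM in FD and was called in both (4.58 and 3.36). KZV36297, of glycosyltransferase family 8, gave 4.44 in F18D/F18 and 2.09 in A18D/A18, and the difference between them was not called (difference −2.35 on the log2(FPKM + 1) scale, SE 0.67, adjusted p = 0.0918). In contrast KZV50919 (deposited as a regulator of type 1 phosphatases) held 55.7, 33.9 and 11.9 FPKM in F18 and 61.8, 54.4 and 41 in F18D and was not called (log2 fold change 0.84, SE 1.05, adjusted p = 0.548). KZV22013 (homogentisate phytyltransferase 1 of tocopherol synthesis) had the lowest mean of both responses, with 147, 97.2 and 113 FPKM in F18 and 93.7, 90.6 and 50 FPKM in F18D (log2 fold change −0.63, SE 0.39, adjusted p = 0.183), a value that median-ratio scaling turned to 0.17. Its A18D/A18 value of 0.19 was not called and its groups overlapped. KZV25007 (a mitochondrial carrier of the solute carrier family 25) and KZV23179 (pathogen-related protein) were also called in neither comparison. In A18D/A18, however, KZV25007 was called after median-ratio scaling and without A18 replicate 1, and KZV23179 without A18 replicate 1 or replicate 1 of every group. Both had higher fresh levels at 18 w than at the start, KZV25007 with 7.17, 6.87 and 8.64 FPKM in F and 37.6, 33.3 and 24.9 in F18, and KZV23179 with 5.09, 12.9 and 4.79 in F and 122, 179 and 311 in F18.

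Fresh leaves held more of the members as plants aged. The median member was 0.90 higher in F18 than in F and 1.01 higher in A18 than in A (log2), where the median kept gene moved by 0.21 and 0.00. Of the 150 members 71 were at least 1 higher in F18 than in F and 77 in A18 than in A, against 16.0% and 9.73% of all kept genes. At 4 w the median was 0.06 in F4/F. In dried leaves the median member was 0.63 lower in F18D than in FD and 0.19 higher in A18D than in AD. These values share libraries with the rule, which took members low in F and A, and so carry no test.

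Most members had their highest level in dried leaves of plants that had never been acclimated. FD, AD, F4D and A4D entered the rule, so the counts of highest groups are a description without a test. The highest group was FD for 73 members, F18D for 32, F4D for 28, AD for 10, A18D for 5 and A4D for 2. The highest of the rapidly dried groups was FD, F4D or F18D for 88.7% of the members and for 58.5% of all kept genes. AD was below FD for 132 members, A4D below F4D for 135 and A18D below F18D for 99, with median differences of −0.96, −0.59 and −0.36 (log2) against −0.02, −0.01 and −0.06 for all kept genes. In A18D/F18D 29 members were lower by more than 1 (5.99% of all kept genes) and 10 higher by more than 1 (2.87%). The comparison at 18 w alone is independent of the rule, and there 3 members were up-regulated (0.187% of all kept genes) and 2 down-regulated (0.475%) in A18D/F18D. KZV28919 was among those down, with 1160.5, 1309 and 1388 FPKM in F18D and 324, 813 and 133 FPKM in A18D (log2 fold change −1.96, SE 0.44, adjusted p = 0.0318), a call lost without A18D replicate 1 or 3 or F18D replicate 2 or 3. The other was KZV14753, with 54.8, 43.8 and 139 FPKM in F18D and 28.7, 22.5 and 8.29 FPKM in A18D (log2 fold change −1.92, SE 0.46, adjusted p = 0.0426), a call lost without F18 replicate 3, A18D replicate 3 or F18D replicate 3. Those up were KZV22549, whose call held under all 21 alternatives, KZV29545, whose call was lost under 7 of them (among these without A18D replicate 2 or F18D replicate 3), and KZV29584, whose call was lost under 15 (among these leaving out any 1 library of F18 or F18D, A18 replicate 2, or A18D replicate 1 or 3).

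The response to drying differed between acclimated and other plants at 18 w (interaction, A18D/A18 minus F18D/F18) for 4 members with a larger rise in acclimated plants (0.512% of all kept genes) and for 0 with a smaller one (0.288%). A further 16 lay below 0 with an unadjusted p under 0.05. Members above 0 at that limit, and the share of all kept genes, were not counted, so the 16 give no direction. KZV22549 (Armadillo repeat only 2, of a family known for polar cell growth in Arabidopsis) was listed at 0 in every library of F18, F18D and A18. In A18D it stood at 24.3, 35.5 and 17.5 FPKM (difference 4.69 on the log2(FPKM + 1) scale, SE 0.80, adjusted p = 0.00329), and no fold is given against groups listed at 0. It was also listed at 0 in F, SD and A, and held 67.8, 59.6 and 70.2 FPKM in FD and 0, 13.4 and 12.9 in AD. F18D was the rapidly dried group with no library above 0. KZV06704 (flavonol synthase/flavanone 3-hydroxylase of flavonoid synthesis) was listed at 0 in all 3 A18 libraries and held 51.4, 28.8 and 8.53 FPKM in A18D. In F18 it was at 40.9, 31.5 and 26 FPKM and in F18D at 48.6, 51.4 and 81.2 (difference 3.77 on the log2(FPKM + 1) scale, SE 0.76, adjusted p = 0.0114), and the fresh leaves differed too (A18/F18, adjusted p = 5.11e-07). The interaction call of KZV06704 was lost when replicate 1 or 2 of every group was left out or when the 12 libraries of 18 w were fitted alone, and that of KZV22549 when replicate 2 was.

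KZV29545 (a leucine-rich repeat receptor-like kinase) stood at 6.1, 2.27 and 2.85 FPKM in F18 and 12.4, 13.1 and 7.26 FPKM in F18D and at 1.62, 1.91 and 2.07 FPKM in A18 and 48.5, 97.3 and 37.1 FPKM in A18D. Its rise was larger in the acclimated plants (difference 2.94 on the log2(FPKM + 1) scale, SE 0.69, adjusted p = 0.0362), but 15 of 21 alternatives, among them leaving out A18 replicate 1 or 2 or F18 replicate 1 or 2, lost the call. KZV29584 is deposited as cyclic nucleotide-gated channel 17, and its transcripts also match a trehalose-phosphate synthase, so which of the neighbouring products was measured is uncertain. It held 5.97, 5.09 and 3.6 FPKM in F18 and 4.25, 4.4 and 3.96 in F18D, and 0.69, 1.77 and 6.19 in A18 and 45.3, 10 and 16.1 in A18D (difference 2.83 on the log2(FPKM + 1) scale, SE 0.69, adjusted p = 0.0411). Of 21 alternatives 14, including leaving out A18 replicate 1 or 2, lost that call.

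**Figure D5:**
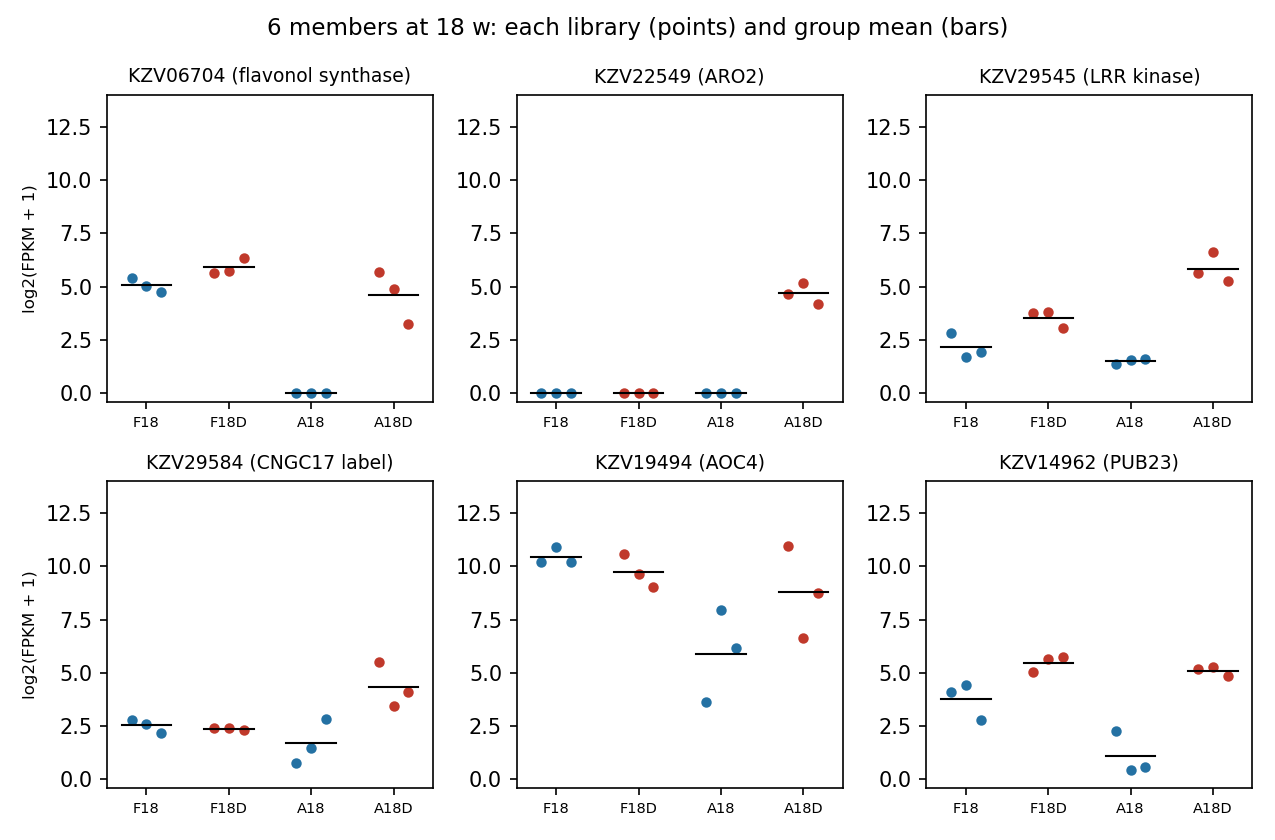
Level of 6 members at 18 w, log2(FPKM + 1), in each library (points) with the group mean (bars). KZV22549 is at 0 in all groups but A18D, KZV06704 is at 0 in A18, and KZV19494 and KZV14962 are lower in A18 than in F18.

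Fresh leaves at 18 w differed by acclimation in 16 of the 150 members, 4 up-regulated in A18/F18 (2% of all kept genes) and 12 down-regulated (5.75%). The median member lay at −0.25 in A18/F18 (log2), near the −0.29 of all kept genes. The counts were not tested against these shares, so they do not set the members apart from other genes. When libraries were left out, the count of 16 ran from 3 to 23. It was 5 without A18 replicate 2 or F18 replicate 2 and 23 without A18 replicate 1. After median-ratio scaling the split was 8 up and 7 down. Shares of all kept genes under these alternatives are not given here. KZV58476 (ERF025, of the DREB group) held 40.9, 72.4 and 71.4 FPKM in F18 and 8.75, 0.25 and 9.38 in A18 (log2 fold change −3.59, SE 0.93, adjusted p = 0.0139), a call lost without A18 replicate 2 or F18 replicate 2. KZV39541 (deposited as a rhicadhesin receptor, a germin-like protein in pea) was at 6.51, 5.89 and 2.45 FPKM in F18 and 0, 0.26 and 0 FPKM in A18 (log2 fold change −2.38, SE 0.39, adjusted p = 0.000221), a call lost when replicate 2 of every group was left out. Its level was at or near 0 in F, SD and A, so that F18 stood apart from the other fresh groups. KZV32883 (peroxidase, which oxidises phenolics with hydrogen peroxide) was at 106, 172 and 77.8 FPKM in F18 and 66.9, 6.67 and 8.53 FPKM in A18 (log2 fold change −2.73, SE 0.78, adjusted p = 0.0263), a call lost when A18 replicate 2 or 3 or F18 replicate 1 or 2 was left out.

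Of the 150 members, 113 had a named product, 75.3% against 71.6% of all kept genes, and 52 fell in at least 1 of 34 gene lists, 34.7% against 26.2% of all kept genes. The first of these shares lay near that of all kept genes. Those with coordinates, 136 members, spanned a median of 1315 bases, against 2265 bases for the 15975 kept genes with coordinates. Short genes give fewer fragments at the same FPKM and so noisier values. Genes added by the authors to the reference annotation were 6 members (4%) and 10.9% of all kept genes. Within 50 kb of another member lay 9 members in 5 pairs, a count not made for other genes. KZV53760 and KZV53761 are among them, and their like products may share reads.

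Promoter methylation gave no replicate, since each group had 1 pooled bisulfite library and FD had none. The FPKM that stand beside the methylation values followed the expression table at Spearman's rho of 0.042 to 0.065 when matched by the locus tag printed, and of 0.898 to 0.943 when matched to the next tag. The FPKM of a row thus followed the gene of the next tag. Whether the methylation values of the row are shifted in the same way was not tested. Both matches are therefore given and no promoter of a named gene. By the printed tag 23 of 92 members (25%) changed by 20 percentage points or more in CG methylation in at least 1 of 5 rapid dryings, against 20.1% of all kept genes with values. By the next tag it was 20 of 103 (19.4%) against 18.4%. In the CHG context (H is any base but G) the shares were 15.2% against 11.5% and 7.77% against 10.7%, and in CHH 10.9% against 5.18% and 6.8% against 4.64%. These shares depend on the limit. By the printed tag 48.9% of the members changed by 10 points or more in CG against 56.4% of all kept genes with values, and 76.1% against 81% changed by 5 points or more. In CHG the shares at 10 points by the printed tag were 39.1% and 39%, and in CHH 29.3% and 26.5%. By the next tag the shares at 10 points were 49.5% against 55.4% in CG, 28.2% against 40.7% in CHG and 24.3% against 24.9% in CHH. Without replicates no test was possible.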

How the data were processed

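Per the labels and the study's methods, the authors cleaned the RNA reads, aligned them to the Boea hygrometrica genome with HISAT, added transcripts found by StringTie (version 1.0.4) and counted fragments with Bowtie2 (version 2.2.5) and RSEM. They deposited FPKM per gene and library. The RSEM version and the genome build are not given in the sources used here. The bisulfite reads were aligned with BSMAP, and the authors deposited methylation as a fraction per promoter of 2 kb, from 1 library per group that pooled DNA of several replicates. FPKM columns beside the fractions were used only to check which gene a row belongs to. The number of fragments per library was not used, and the precision of FPKM was judged from the 3 libraries of each group. The study’s own test needs counts, so limma was used here.

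Kept genes reached 1 FPKM or more in 3 or more libraries. log2(FPKM + 1) of all 39 libraries was fitted with 1 mean per group in limma (version 3.58.1, R 4.3.3, lmFit, contrasts.fit and eBayes with trend). Calls needed a log2 fold change of 1 or more in size and a Benjamini-Hochberg adjusted p of 0.05 or less over all kept genes, two-sided. Fold changes are on the log2(FPKM + 1) scale, which understates changes of low genes, and SE is limma's moderated standard error. P-values measure the spread between biological replicates, each a pool of leaves. In simulated data of 17768 genes, noise was set around the mean of each gene over all 39 libraries. Only a small set of genes of higher mean level was raised in F18D. Of those raised by log2 1.5, 2 and 3, 64.2%, 82.1% and 93.9% were called in F18D/F18, with 8 false calls. Low genes were not among those raised, and far more genes changed in the real comparison, so these figures do not cover such cases. Tables and figures were made with Python 3.11.15, numpy 2.4.6, pandas 2.3.3, scipy 1.17.1 and matplotlib 3.10.9, with data.table version 1.17.8 in R.

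The members and the gene lists were chosen with earlier results of these data known. Lists are text patterns on the deposited product names and on the closest database match, and a match in either put a gene in the list. The genes named are members with a named product, namely the 15 with the largest minimum of the 4 rapid differences, up to 4 per list, the 5 highest and 5 lowest by their mean change at 18 w, up to 5 per direction called in the other 18 w comparisons, and the 5 with the largest CG change. That CG change was read by the printed locus tag, so it may belong to the promoter of another gene. The 3 genes on either side of each limit of the rule are also named, whatever their product, and those outside it are not members. Alternatives were a pseudocount of 0.1, no filter, median-ratio scaling, a fit of the 12 libraries of 18 w, a replicate block, and leaving out libraries. A match of promoters by the next locus tag was added after seeing the data. No sequence or promoter motif was used here.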

Additional observations from a re-analysis of the deposited data

Results flagged for a closer look

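For 4 members the change on rapid drying at 18 w differed between acclimated and other plants, by the test of that difference itself (limma, A18D/A18 minus F18D/F18). KZV22549 (Armadillo repeat only 2) gave 4.69 on the log2(FPKM + 1) scale, since A18D alone was above 0. KZV06704 (flavonol synthase) gave 3.77, with A18 alone at 0. KZV29545 (leucine-rich repeat kinase) gave 2.94 and KZV29584 (deposited as cyclic nucleotide-gated channel 17) gave 2.83. The adjusted p of KZV29545 was 0.0362 and that of KZV29584 0.0411, and these calls were lost under 15 and 14 of 21 alternatives. For KZV06704 the call was lost under 3 and for KZV22549 under 1.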

How the results depend on the processing

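The counts of members up-regulated in F18D/F18 (109) and A18D/A18 (115) stayed between 85 and 129 and between 83 and 131 under all alternatives run. Leaving out libraries gave 0 to 5 members in the interaction, 1 to 5 in A18D/F18D and 3 to 23 in A18/F18. The interaction count of 4 became 2 with a pseudocount of 0.1 and 1 in the fit of the 12 libraries of 18 w. The A18D/F18D count of 5 became 2 with a pseudocount of 0.1, 3 without the filter and 1 in the 12-library fit, and the A18/F18 count of 16 became 10 in that fit. Median-ratio scaling moved the median member from 2.20 to 2.87 in F18D/F18 and from 2.16 to 2.67 in A18D/A18. The rule itself shared 103 of its 150 genes with those chosen with a pseudocount of 0.1, 130 after scaling and 114 to 138 without single replicates. With a replicate block the counts were 109, 115, 4, 5 and 16, and same-numbered libraries did not deviate together (mean r −0.011). In the promoters, by the printed tag, limits of 10 and 5 points gave 45 and 70 of 92 members for CG (48.9 and 76.1%, against 56.4 and 81% of all kept genes with values). They gave 36 and 64 for CHG (39.1 and 69.6%, against 39 and 62.2%) and 27 and 56 for CHH (29.3 and 60.9%, against 26.5 and 54.5%). The next tag gave 8 for CHG at 20 points. Scaling turned the F18D/F18 value of KZV19494 to 0.10, of KZV29584 to 0.48, of KZV22562 to 0.76 and of KZV22013 to 0.17. Without single libraries KZV22562 ran from −0.19 to 0.065, KZV23179 from −0.23 to 0.53 and KZV25007 from −0.044 to 0.24 in F18D/F18, and KZV42614 from −0.25 to 1.55 and KZV22013 from −0.18 to 0.62 in A18D/A18. The cause of these changes was not tested. Of 155 values of named genes 125 were called, and 74 of those calls held under every alternative run. FPKM without counts limits what can be said of genes near 0.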

Other observations

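Retroelement products, chosen after their values were seen, were 4 of the 150 members (2.67%) and 26 of all kept genes (0.139%). KZV44490 (Gag-Pol polyprotein) was listed at 0 in all 3 F libraries and held 25.8, 59.9 and 28.6 FPKM in FD. It stood at 0, 2.16 and 0.42 FPKM in F18 and 2.12, 2.38 and 12.9 FPKM in F18D (log2 fold change 1.68, SE 0.48, adjusted p = 0.00503) and at 0.77, 0 and 0 FPKM in A18 and 4.37, 13.2 and 3.83 FPKM in A18D (log2 fold change 2.57, SE 0.48, adjusted p = 0.000109). Of these 4 members 2 were up-regulated in F18D/F18 and 4 in A18D/A18. Of the other 22 kept retroelement products 6 were up and 2 down in F18D/F18, and 13 up and 1 down in A18D/A18. Near-identical copies of such elements can share reads, so the values of single copies are uncertain.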
